A study of Arabidopsis thaliana with 12 samples.

Results

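T87 is a suspension cell line of Arabidopsis thaliana derived from a seedling, and here its cells grew as callus, a mass of dividing cells without organs. The data compared are 3 arrays of T87 callus, labelled as wild-type Col-0 and kept on medium with the synthetic auxin NAA at 500 nM, with 3 arrays of untreated wild-type Col-0 seedlings that were 14 days old. These are 6 of the 12 arrays in the series and were chosen by their titles alone. The other 6 serve here only to show where T87 callus differs from other calli: 3 arrays of callus induced on the wild type with 500 µg/L of the auxin 2,4-D, and 3 of callus-like plants that express the AP2/ERF factor WIND1 from the constitutive 35S promoter and received no treatment. All grew on solid MS medium, and total RNA from each was labelled with Cy3 and hybridised to a one-colour Agilent array. The labels call the 3 arrays of a group biological replicates, each from its own plant or callus. T87 is 1 cell line, so its values describe that line and not callus of Arabidopsis at large, and seedlings hold all organs at once.

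Callus lacks the organised tissues of a plant, and plant cells held in culture live on the sugar, nitrate and hormones of the medium. Auxin in the medium keeps such cells dividing, and genes of photosynthesis, surface lipids and organ identity are then usually low. Regulators of the embryo and genes of gametes and endosperm are normally silent in vegetative tissue.

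Values below are log2 levels, the log2 of a probe's background-subtracted signal minus the 75th percentile of its array, and a gene at 0 had that percentile's signal. Levels of different genes come from different probes and are not compared with each other. Arrays of T87 callus correlated across genes at 0.980 to 0.986 with each other and seedling arrays at 0.986 to 0.991. Pairs of 1 T87 and 1 seedling array correlated at 0.665 on average. The median standard deviation (SD) of a gene over 3 arrays was 0.18 in T87 callus and 0.11 in seedlings. Spots well above background made up 60.0% to 62.9% on the T87 arrays and 65.0% to 65.1% on the seedling arrays, and the 75th percentile lay at 3212 to 3440 and at 1755 to 2323 signal units. Of 21361 genes tested, 17485 (81.9%) were well above background on all 6 arrays, 660 (3.09%) on all T87 arrays and no seedling array, and 1545 (7.23%) on all seedling arrays and no T87 array.

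A gene was called when it differed at least 2-fold at an adjusted p under 0.05, with limma and Benjamini-Hochberg adjustment over the 21357 genes that had a p-value, and a gene that missed either limit is said below not to pass. T87 callus was called higher than seedlings for 4454 genes (20.9% of those tested) and lower for 5671 (26.6%), 47.4% in all. The list counts below at this scaling are to be read beside these shares, and a list near them moved no more often than genes at large. List counts under other settings have other shares beside them. Those with array-median scaling belong beside 9640 higher and 3914 lower of 21361 genes, and those with normexp background correction beside 2425 and 2733. Of the called genes 3572 higher and 3287 lower ones were well above background on all 6 arrays, and their median size of change was 1.64 and 2.03 on the log2 scale at this scaling. Among these, 69 higher and 260 lower genes had changed at least 32-fold, and 15 and 65 at least 128-fold. The T87 and seedling arrays did not overlap for 17277 genes (80.9%). Scaling matters for this split, because with the median of each array in place of its 75th percentile 9640 genes were higher and 3914 lower, and the median change of all genes moved from 0.00 to 0.86. Each of the 3 slides held 1 array of every group at a fixed position, so an effect of that position cannot be told apart from the group.

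**Figure D1:**
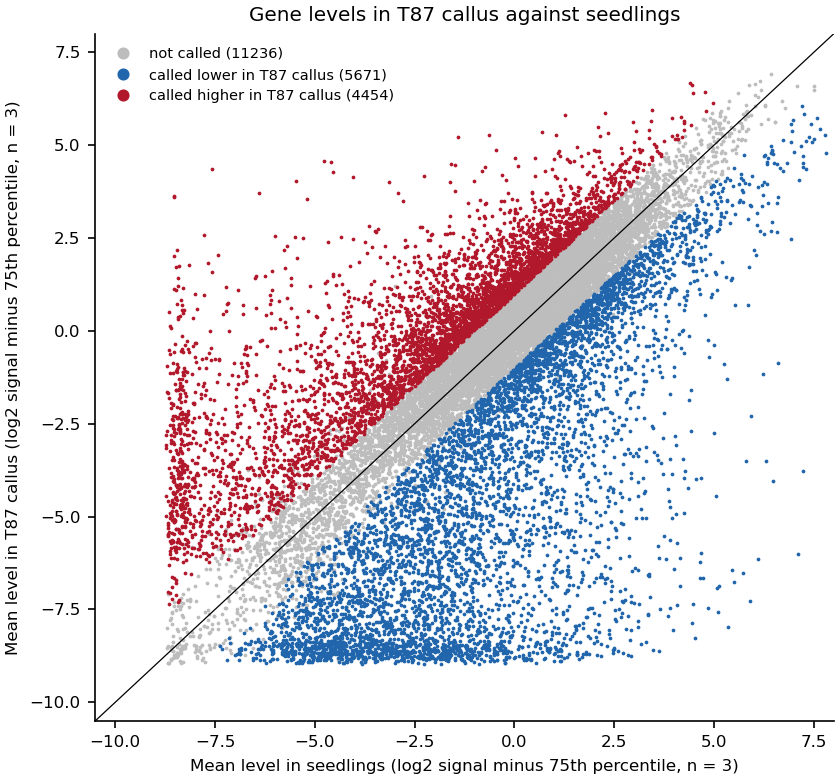
Mean log2 level of each gene tested in seedlings (x axis) and T87 callus (y axis), both as log2 signal relative to the array's 75th percentile and each over 3 arrays, with genes called higher or lower in colour. Of the called genes well above background on all 6 arrays, the 3287 lower ones had a median distance from the diagonal of 2.03 and the 3572 higher ones of 1.64.

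Markers of seedling organs were mostly called lower in T87 callus. All 5 markers of epidermis tested, all 6 of stomata and trichomes, all 7 of root and all 3 of phloem were called lower, and none of these lists had a member called higher. Not all of these calls held: normexp background correction ended those of SPCH, MUTE, GL1 and GL2 among stomata and trichomes and of WOX5 and RHD6 among root markers, while array-median scaling ended those of SCR, SHR and WOX5. WOX5, which maintains the root stem-cell niche, lay at log2 levels of -4.52, -4.96 and -2.07 on the seedling arrays and -6.02, -5.55 and -5.66 on the T87 arrays (log2 change -1.89, SE 0.64, adjusted p = 0.0229), and without seedling array 3 its change was -1.0 (adjusted p = 0.0318). The guard-cell regulators SPCH and FAMA and the trichome regulator GL1 were not well above background on any T87 array, nor were the epidermal gene PDF1 and the sieve-element protein SEOR1. The log2 of the summed level of the epidermal list was 5.14 to 5.23 in seedlings and -2.43 to -1.72 in T87 callus, and that of the root list 5.15 to 5.39 in seedlings and 0.52 to 0.86 in T87 callus. Among 4 xylem markers the proteases XCP1 and XCP2 were lower, while the cellulose synthase IRX3 and the regulator VND7 did not pass (log2 changes -1.48 and 0.05). Shoot meristem markers were mixed, with 2 higher and 1 lower of 4: STM, well above background on 1 T87 array, changed by -6.86 log2 units, the stem-cell genes WUS and CLV3, which no seedling array measured, were at least 3.83-fold and at least 2.31-fold higher, and KNAT1 did not pass (log2 change -0.55). With normexp WUS and CLV3 turned to -0.05 (adjusted p = 0.975) and -0.32 (adjusted p = 0.831). In bulk RNA, fewer cells of a type and less RNA per cell cannot be told apart.

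Mesophyll genes did not fall alike. The Rubisco small-subunit gene RBCS1A lay at log2 levels of 7.33, 7.71 and 7.44 on the seedling arrays and 6.6, 6.26 and 6.62 on the T87 arrays, a log2 change of -1.0 (SE 0.41) that did not pass (adjusted p = 0.0529). Its T87 arrays were all below the seedling arrays and far above those of 2,4-D-induced callus (log2 difference 4.62, adjusted p = 6.97e-06). The Rubisco activase RCA fell by 3.06 log2 units (adjusted p = 0.000215), and the carbonic anhydrase CA1 had a log2 change of -9.51. Another small-subunit gene, RBCS2B, had the largest of these falls, at 7.11, 7.48 and 7.13 on the seedling arrays and -2.79, -4.36 and -4.19 on the T87 arrays (log2 change -11.02, SE 0.81, adjusted p = 1.46e-06), and the antenna gene LHCB2.3 lay at log2 levels of 6.41, 6.50 and 6.52 on the seedling arrays and -4.48, -2.96 and -4.72 on the T87 arrays (log2 change -10.53, SE 0.85, adjusted p = 2.56e-06). Both nonetheless lay above 2,4-D-induced callus, with log2 differences of 4.20 (adjusted p = 0.00124) and 2.85 (adjusted p = 0.0139). The small-subunit genes are near-identical copies whose probes can share signal, so the split between them is uncertain. For the antenna gene LHCB1.1 a T87 spot was an outlier and was dropped, and the remaining arrays gave a log2 change of -2.38 (adjusted p = 0.0028).

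Embryo markers were called higher in T87 callus for 5 of 5, and auxin-induced callus markers were called higher for 2 of 6 and lower for 4. Only LEC1 and FUS3 kept their embryo call with normexp background correction, and L1L (NF-YB6), with a log2 change of 1.33 without it, changed sign. LEC1, a transcription factor of embryo identity, rose by 6.52 log2 units (adjusted p = 1.81e-07). The B3 factor FUS3, which directs seed maturation, lay at log2 levels of -4.56, -4.49 and -4.38 on the seedling arrays and 1.26, 1.62 and 0.81 on the T87 arrays (log2 change 5.71, SE 0.26, adjusted p = 7.34e-08). Its T87 arrays were far above those of seedlings and also above 2,4-D-induced callus (log2 difference 6.89, adjusted p = 3.94e-08), where 2 of 3 arrays measured it, and 35S:WIND1 callus (log2 difference 6.39, adjusted p = 8.52e-08). The related factor ABI3, which no seedling array measured above background, was at least 10.9-fold higher (adjusted p = 7.94e-05), and LEC2, well above background on 1 seedling array, rose by 2.74 log2 units. Of the auxin-induced callus markers, LBD16, which acts in root founder cells and in callus formation, rose by 3.74 log2 units (adjusted p = 8.95e-06) to a log2 level of 0.19 ± 0.03 (SD, n = 3), and did not differ from 2,4-D-induced callus by the test (log2 difference -0.35, adjusted p = 0.429). LBD17, LBD29 and the root-stem-cell regulators PLT1 and PLT2, the lower ones, were well above background on none of the T87 arrays, with bounds of at least 2.68-fold, at least 1.07-fold, at least 2.58-fold and at least 6.32-fold lower. LBD18, called higher, was above background on no array of either group, so no size is given. Against 2,4-D-induced callus, where it stood at a log2 level of 1.1 ± 0.30, PLT2 was at least 215-fold lower in T87 callus (adjusted p = 7.69e-08). After normexp background correction the change of ABI3 (log2 change 0.72, adjusted p = 0.619), LEC2 (log2 change 0.37, adjusted p = 0.818), LBD17 (log2 change -1.05, adjusted p = 0.565), LBD29 (log2 change -1.1, adjusted p = 0.551), PLT1 (log2 change -1.03, adjusted p = 0.57) and PLT2 (log2 change -1.3, adjusted p = 0.42) no longer passed. With that correction L1L (log2 change -0.32, adjusted p = 0.851) and LBD18 (log2 change -0.45, adjusted p = 0.807) changed sign. L1L lost its call without T87 replicate 2 (log2 change 0.94, adjusted p = 0.00551).

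Secreted enzymes, defence proteins and a few regulators were among the 15 largest rises of genes with a symbol that were well above background on all 6 arrays. The secreted starch-degrading enzyme AMY1 lay at log2 levels of -5.54, -5.87 and -4.90 on the seedling arrays and 2.28, 1.94 and 1.64 on the T87 arrays (log2 change 7.39, SE 0.69, adjusted p = 7.22e-06), a 167-fold rise. The wall peroxidase PRX52 lay at log2 levels of -3.74, -3.34 and -2.32 on the seedling arrays and 4.09, 3.72 and 4.18 on the T87 arrays (log2 change 7.13, SE 0.44, adjusted p = 4.59e-07). For both genes the groups of arrays lay far apart, with no overlap. The lipase MPL1 rose by 6.63 log2 units, the defensin-like PDF1.4 by 6.88, the thioredoxin TH8 by 6.44 and the xyloglucan-modifying enzyme XTH11 by 6.58. PI, a regulator of petal and stamen identity, rose by 6.43 log2 units to a log2 level of 4.17 ± 0.46, and stood at a log2 level of 5.18 ± 0.17 in 2,4-D-induced callus (log2 difference -1.0, adjusted p = 0.0829). The ERF factor Rap2.6L, linked to tissue repair, rose by 6.28 log2 units, and WPP3, of a family at the nuclear envelope, by 6.84. AMY1, PRX52, WPP3 and Rap2.6L were also called higher than in 2,4-D-induced callus, with log2 differences of 2.03, 5.51, 5.30 and 1.3.

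The 15 largest falls of such genes included genes of surface lipids, the vacuole and wall polymers. For genes that no T87 array measured above background the fold is a lower bound, the seedling mean over a floor set by the dimmest signals that still counted as measured. The germin-like protein GER1 lay at log2 levels of 5.37, 5.55 and 5.58 on the seedling arrays and -6.30, -7.04 and -6.91 on the T87 arrays, and was at least 4408-fold lower (adjusted p = 6.18e-08). The lipase LTL1 was at least 697-fold, the ABC transporter ABCG19 at least 752-fold and MYB29, a regulator of aliphatic glucosinolates, at least 637-fold lower. KCS1, which elongates very-long-chain fatty acids for cuticle lipids, lay at log2 levels of 3.86, 3.84 and 3.95 on the seedling arrays and -3.99, -4.92 and -4.84 on the T87 arrays (log2 change -8.47, SE 0.31, adjusted p = 2.37e-08). None of its T87 arrays came near a seedling array, and T87 callus was also below 2,4-D-induced (log2 difference -5.60, adjusted p = 3.15e-07) and 35S:WIND1 callus (log2 difference -7.65, adjusted p = 8.4e-08). The lipid transfer protein LTPG2 changed by -8.11 log2 units, the mannan synthase ATCSLA09 by -8.97, the glycine-rich protein GRP9 by -9.31 and the dehydration-responsive RD22 by -8.99. At the vacuolar membrane, the water channel GAMMA-TIP changed by -8.23 log2 units and the dicarboxylate carrier TDT by -8.43. The T87 levels of GAMMA-TIP were spread widely, at log2 levels of 0.66, -4.07 and -3.51, and it stood at a log2 level of 6.83 ± 0.40 in 35S:WIND1 callus (log2 difference -9.14, adjusted p = 3.22e-05). These falls stood beside the low epidermal markers given above, and the part of cell types in them was not tested.

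Nitrogen genes moved both ways: of 26 tested, 7 were higher and 11 lower, with a median log2 change of -0.48, and 10 higher and 8 lower with array-median scaling. Among uptake carriers, the high-affinity nitrate transporter NRT2.5 lay at log2 levels of -5.60, -4.71 and -5.59 on the seedling arrays and 2.04, 2.55 and 2.88 on the T87 arrays (log2 change 7.79, SE 0.60, adjusted p = 1.97e-06). The ammonium transporter AMT1;1 lay at log2 levels of 2.64, 2.58 and 2.77 on the seedling arrays and 4.11, 4.42 and 4.44 on the T87 arrays (log2 change 1.66, SE 0.32, adjusted p = 0.00111), and its T87 arrays stood above those of every other group. Its relatives went the other way: AMT1;2, well above background on all seedling arrays and on no T87 array, was at least 662-fold lower, and AMT1;3 changed by -6.21 log2 units. The dual-affinity transporter NRT1.1 changed by -2.03 log2 units (adjusted p = 0.000288). In assimilation, nitrate reductase NIA1 (log2 change -2.58), nitrite reductase NIR1 (log2 change -2.67), the plastid glutamine synthetase GS2 (log2 change -2.56) and the ferredoxin-dependent glutamate synthase GLU1 (log2 change -3.80) were lower. The cytosolic glutamine synthetases GLN1;1 and GLN1;3 were higher, by 1.67 (adjusted p = 0.000532) and 1.29 (adjusted p = 8.86e-05). A further cytosolic isoform, GLN1;2, was lower (log2 change -1.81). With array-median scaling GLN1;2 (log2 change -0.95, adjusted p = 0.0574) did not pass.

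Genes of iron homeostasis were mostly lower in T87 callus. Of 19 iron genes tested, 11 were lower and 2 higher, with a median log2 change of -2.74, beside -3.33 in 2,4-D-induced and -2.33 in 35S:WIND1 callus against the same seedlings, and 2 higher and 5 lower with normexp background correction. FIT, the bHLH factor that switches on iron uptake, lay at log2 levels of 0.19, -0.65 and -0.13 on the seedling arrays and -8.43, -8.80 and -8.78 on the T87 arrays, and was at least 87.5-fold lower (adjusted p = 4.27e-08). The nicotianamine synthase NAS4 was at least 85.9-fold lower and the iron-chelate reductase FRO2 changed by -2.41 log2 units. The higher genes were both ferritins, which store iron: FER2 rose by 3.17 log2 units (adjusted p = 3.15e-07) and FER4 by 1.63 (adjusted p = 1.07e-05). Root markers were lower for 7 of 7, with the log2 of their summed level at 5.15 to 5.39 in seedlings and 0.52 to 0.86 in T87 callus and every one detected on at least 1 T87 array, and their part in this was not tested. After normexp background correction the change of FRO2 (log2 change -1.37, adjusted p = 0.194) no longer passed.

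Sulfate genes were low in T87 callus. Of 14 tested, 9 were lower and none higher, with a median log2 change of -1.71, beside -0.34 and -0.27 in 2,4-D-induced and 35S:WIND1 callus, or -1.25 with unmeasured genes at their bound, and 1 higher and 6 lower with array-median scaling. APR1, which reduces activated sulfate, lay at log2 levels of 3.18, 3.49 and 3.56 on the seedling arrays and 1.04, 1.22 and 0.94 on the T87 arrays (log2 change -2.34, SE 0.36, adjusted p = 0.000206). Directly, 5 of the 14 were lower than in 2,4-D-induced callus and 2 higher, where 19.2% and 19.7% of all genes were so called. APR1 was below 2,4-D-induced callus (log2 difference -2.50, adjusted p = 0.000162) and 35S:WIND1 callus (log2 difference -2.16, adjusted p = 0.000499). The root sulfate transporter SULTR1;2 changed by -2.55 log2 units, the ATP sulfurylase APS1 by -2.55 and SDI1, a gene induced by sulfur shortage, by -3.90. Phosphate genes were mixed, with 4 higher and 2 lower of 14, and 9 higher and 2 lower with array-median scaling: the sensor SPX1 rose by 2.72 log2 units (adjusted p = 0.000117), while the transporter PHT1;1, with a seedling spot dropped, changed by -4.79 log2 units and the exporter PHO1 by -3.29. Normexp left 2 higher and 2 lower, and without T87 array 1 or 3 there were 2 higher. Under normexp background correction the change of SPX3 (log2 change 0.21, adjusted p = 0.888) and PHT1;5 (log2 change 0.67, adjusted p = 0.501) no longer passed. SPX3 lost its call without seedling replicate 2 (log2 change 2.00, adjusted p = 0.073), without T87 replicate 1 (log2 change 2.08, adjusted p = 0.0686) and without T87 replicate 3 (log2 change 1.75, adjusted p = 0.0749). PAP17 lost its call without T87 replicate 1 (log2 change 1.32, adjusted p = 0.0693) and without T87 replicate 3 (log2 change 1.55, adjusted p = 0.0539).

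Genes of sugar transport and starch went both ways in T87 callus. Of 22 genes of sugar transport and starch tested, 6 were higher and 9 lower, or 7 higher and 7 lower with array-median scaling and 3 higher and 8 lower with normexp background correction. The starch genes APL1, a subunit of the enzyme that makes ADP-glucose, and GBSS1, which makes amylose, were both lower. APL1 changed by -3.70 log2 units, and GBSS1 lay at log2 levels of 3.42, 3.56 and 3.1 on the seedling arrays and -6.52, -6.15 and -7.11 on the T87 arrays, with 1 of the 3 T87 arrays well above background (log2 change -9.95, SE 0.40, adjusted p = 3.59e-08). The phloem-loading sucrose carrier SUC2 changed by -5.50 log2 units and the sucrose exporter SWEET11 by -5.62. Phloem markers, of which SUC2 is itself 1, were lower for 3 of 3. The log2 of their summed level was 2.82 to 3.01 in seedlings and -3.93 to -2.60 in T87 callus. Both the count and the sum hold SUC2, so they are no separate measure beside its fall. The part of phloem in these falls was not tested. The hexose importer STP13 lay at log2 levels of -2.09, -2.65 and -1.51 on the seedling arrays and 1.21, 2.02 and 1.68 on the T87 arrays (log2 change 3.72, SE 0.31, adjusted p = 3.48e-06). Its T87 arrays were all above the seedling arrays, though below 2,4-D-induced callus (log2 difference -1.04, adjusted p = 0.0151). The hexose importer STP4 rose by 1.73 log2 units and the sucrose synthase SUS1 by 1.61. The cell-wall invertase CWINV1, which splits sucrose outside the cell, changed from seedlings by -3.24 log2 units in T87 and by 1.98 in 2,4-D-induced callus, and the calli differed (log2 difference -5.22, adjusted p = 3.82e-06). After normexp background correction the change of STP1 (log2 change 1.27, adjusted p = 0.0517), GPT2 (log2 change 2.22, adjusted p = 0.105) and SUS2 (log2 change 0.78, adjusted p = 0.447) no longer passed. STP1 lost its call without seedling replicate 1 (log2 change 1.23, adjusted p = 0.0503), without seedling replicate 2 (log2 change 1.18, adjusted p = 0.0587), without T87 replicate 1 (log2 change 1.21, adjusted p = 0.0522) and without T87 replicate 2 (log2 change 1.2, adjusted p = 0.0545).

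Many genes of the plastid machinery stood higher in T87 callus than in callus on 2,4-D. Of 22 nuclear genes for plastid transcription, protein import and division, 8 were lower and 2 higher than in seedlings, with a median log2 change of -0.78, and 3 higher and 2 lower with array-median scaling. In the direct comparison with 2,4-D-induced callus 13 of the 22 were higher in T87 callus and 0 lower. Among all genes 19.7% were called higher there and 19.2% lower. The sigma factor SIG4 stood at a log2 level of -0.44 ± 0.27 in T87 and a log2 level of -4.04 ± 0.77 in 2,4-D-induced callus (log2 difference 3.6, adjusted p = 3.05e-05), and the plastid ribosomal protein PRPL11 differed as well (log2 difference 1.93, adjusted p = 1.31e-06). The receptor gene TOC132, which admits non-photosynthetic proteins, lay at log2 levels of 0.88, 0.99 and 0.93 on the seedling arrays and 4.20, 4.50 and 4.35 on the T87 arrays (log2 change 3.41, SE 0.18, adjusted p = 1.51e-07). All 3 of its T87 arrays lay above the arrays of both other calli, and TOC132 sits in a stretch of raised neighbours on chromosome 2. Another import receptor gene, TOC34, rose by 1.26 log2 units, and the sigma factors SIG1, SIG2 and SIG6 changed by -2.23 log2 units, -1.31 and -1.1. Under normexp background correction the change of SIG6 (log2 change -0.99, adjusted p = 0.00248) no longer passed. With array-median scaling PRPL11 (log2 change -0.52, adjusted p = 0.00919), SIG2 (log2 change -0.44, adjusted p = 0.0338) and SIG6 (log2 change -0.23, adjusted p = 0.294) did not pass.

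Several growth-promoting factors of light signalling were low. Of 22 tested, 9 were lower and 3 higher, with a median log2 change of -0.60, 5 higher and 7 lower with array-median scaling, and 1 higher without T87 array 3. The lower ones included 4 of the 5 phytochrome-interacting factors tested: PIF4 lay at log2 levels of 3.94, 4.06 and 4.13 on the seedling arrays and -1.91, -4.40 and -2.87 on the T87 arrays (log2 change -7.11, SE 0.54, adjusted p = 1.76e-06), PIF5 changed by -3.80 log2 units, PIF1 by -3.02, and PIF7 was at least 170.4-fold lower. PIF3 changed by less than 2-fold (log2 change -0.35, adjusted p = 0.0239). The blue-light receptors PHOT1 and PHOT2, which direct growth and chloroplasts toward light, changed by -4.60 log2 units and -4.19, and HFR1, an atypical bHLH of shade responses, by -6.16. PHOT2 has 3 tested probes, with changes from -4.19 to -0.67, so the size of its fall depends on the probe. The photoreceptors PHYB (log2 change -0.28), CRY1 (log2 change -0.48) and CRY2 (log2 change -0.40) did not pass, and PHYD rose by 1.12 log2 units (adjusted p = 2.3e-05). Against 35S:WIND1 callus, where 20% of all genes were called lower and 16.8% higher, 10 of the 22 were lower in T87 callus and 0 higher, with a log2 difference of -5.68 for PIF4. With the authors' deposited values those background counts against 35S:WIND1 callus were 2131 higher and 6508 lower, and with array-median scaling 5969 and 3286, beside 3590 and 4280 here.

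**Figure D2:**
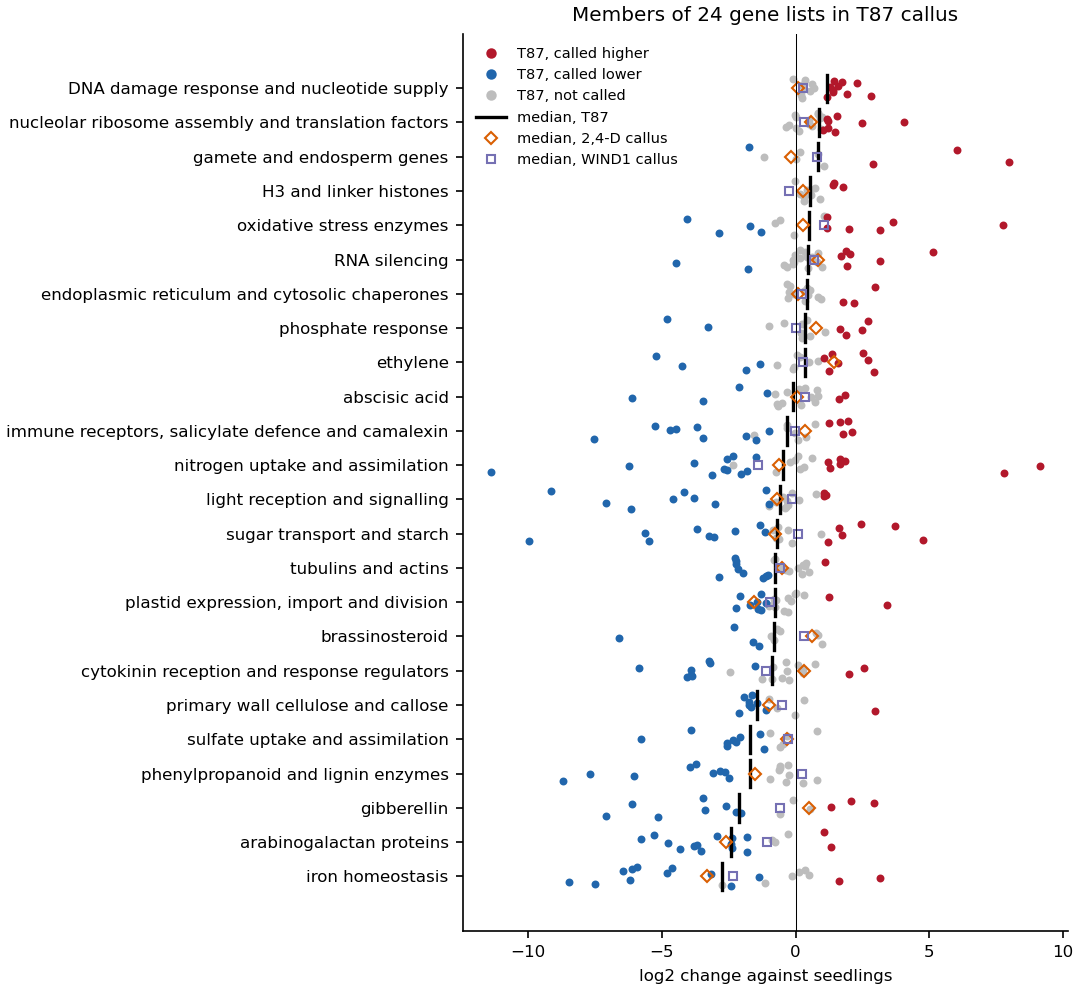
Log2 change of every tested member of 24 gene lists, T87 callus minus seedlings (x axis), by list (y axis). Points are genes, in colour where called, and further marks give the list medians in T87, 2,4-D-induced and 35S:WIND1 callus. The iron, arabinogalactan and gibberellin lists have T87 medians of -2.74, -2.4 and -2.13, and the list of DNA damage and nucleotide supply one of 1.19.

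Wall genes were mostly lower. Of 13 genes of primary-wall cellulose and callose, 8 were lower and 1 higher, though 2 higher and 2 lower with array-median scaling. Subunits of primary-wall cellulose synthase were lower: CESA1 changed by -1.69 log2 units, CESA3 by -1.46 and CESA6 by -1.64, and the chitinase-like CTL1 by -2.14. CESA9, a subunit known from seed coats, was higher and lay at log2 levels of -2.37, -1.87 and -2.29 on the seedling arrays and 0.85, 0.78 and 0.75 on the T87 arrays (log2 change 2.97, SE 0.48, adjusted p = 0.00032). In 2,4-D-induced callus it stood below seedlings, at a log2 level of -3.92 ± 0.40, and the calli differed (log2 difference 4.71, adjusted p = 1.68e-05). Of 18 arabinogalactan proteins tested, 13 were lower and 2 higher, with a median log2 change of -2.4, and 2 higher and 10 lower with array-median scaling. FLA11, an arabinogalactan protein known from secondary walls, changed by -5.78 log2 units, AGP14 by -5.31, AGP12, with a seedling spot dropped, by -4.76 and AGP31 by -3.53, while AGP2 rose by 1.33 log2 units (adjusted p = 4.19e-05). With array-median scaling CESA1 (log2 change -0.82, adjusted p = 0.00207), CESA3 (log2 change -0.59, adjusted p = 0.022) and CESA6 (log2 change -0.77, adjusted p = 0.000255) did not pass.

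In the phenylpropanoid pathway, which makes lignin and flavonoid precursors, some isoforms were lower and others did not pass. None of 18 genes was higher and 9 were lower, with a median log2 change of -1.72 in T87 callus, -1.54 in 2,4-D-induced and 0.24 in 35S:WIND1 callus, and 0 higher and 6 lower with normexp background correction. PAL1, one of the entry enzymes, lay at log2 levels of 4.51, 4.47 and 4.43 on the seedling arrays and 1.74, 1.85 and 2.38 on the T87 arrays (log2 change -2.48, SE 0.29, adjusted p = 3.33e-05), and PAL4 was at least 157-fold lower. The ligase 4CL3, which serves flavonoids, was at least 84.8-fold lower, while 4CL1 (log2 change -0.36, adjusted p = 0.305) did not pass. The shared middle enzymes C4H (log2 change -0.96), HCT (log2 change -0.57) and CCoAOMT1 (log2 change -0.62) did not pass either. Directly against 35S:WIND1 callus, 11 of the 18 were lower in T87 callus and 0 higher, PAL1 among the lower ones (log2 difference -2.84, adjusted p = 2.07e-05). In that comparison 20% of all genes were called lower and 16.8% higher.

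Among hormone pathways, the gibberellin list had the lowest median at this scaling. Gibberellin is made by oxidases, bound by GID1 receptors, and acts by removing DELLA repressors. Of 14 genes tested, 8 were lower and 3 higher, with a median log2 change of -2.13 in T87 callus, 0.49 in 2,4-D-induced and -0.59 in 35S:WIND1 callus, and 2 higher and 3 lower with normexp background correction. With unmeasured genes at their bound the T87 median was -1.73. In the direct comparison 10 of the 14 were lower in T87 than in 2,4-D-induced callus and 0 higher. Of all genes 19.2% were called lower and 19.7% higher in it. Of the late biosynthetic enzymes, GA3OX1 was at least 47.5-fold lower (adjusted p = 4.92e-06) and GA20OX1 at least 29.9-fold lower (adjusted p = 1.37e-05), while the early oxidase GA3 rose by 2.08 log2 units (adjusted p = 7.48e-08). Among receptors GID1B rose by 1.31 log2 units, and GID1A (log2 change 0.55) and GID1C (log2 change -0.11) did not pass. Of the DELLA repressors, GAI lay at log2 levels of 0.65, 0.81 and 0.88 on the seedling arrays and -4.00, -4.80 and -4.30 on the T87 arrays (log2 change -5.15, SE 0.33, adjusted p = 6.3e-07), RGA changed by -2.22 log2 units and RGL1 by -2.03, and RGL3 rose by 2.93 log2 units (adjusted p = 1.29e-06). GAI was below both other calli on every T87 array, with a log2 difference of -3.46 from 2,4-D-induced callus (adjusted p = 1.14e-05). Under normexp background correction the change of GA3OX1 (log2 change -2.71, adjusted p = 0.0581), GA20OX1 (log2 change -2.23, adjusted p = 0.149) and GID1B (log2 change 0.95, adjusted p = 0.0281) no longer passed.

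Of 22 cytokinin genes, 8 were lower and 2 higher, with a median log2 change of -0.87 in T87 callus, beside 0.32 in 2,4-D-induced callus, and 2 higher and 3 lower with normexp background correction. Cytokinin is sensed by histidine kinases, and phosphotransfer proteins pass the signal to response regulators. Of the 3 receptors, AHK4 rose by 2.01 log2 units (adjusted p = 0.000773), AHK2 changed by -3.19 log2 units (adjusted p = 1.63e-07) and AHK3 did not pass (log2 change -0.51). The phosphotransfer protein AHP2 lay at log2 levels of 0.04, -0.02 and -0.03 on the seedling arrays and 2.68, 2.54 and 2.49 on the T87 arrays (log2 change 2.57, SE 0.13, adjusted p = 1.06e-07). Its relative AHP1 went the other way, at log2 levels of -0.27, -0.58 and -0.50 on the seedling arrays and -5.81, -6.00 and -7.08 on the T87 arrays, with 2 of the 3 T87 arrays well above background (log2 change -5.85, SE 0.67, adjusted p = 2.79e-05). AHP1 was high in 2,4-D-induced callus at a log2 level of 1.52 ± 0.33, and the auxin-kept calli differed (log2 difference -7.81, adjusted p = 4.95e-06). Of the primary response regulators, ARR4 (log2 change -0.90) and ARR5 (log2 change -0.84) did not pass, and ARR9 changed by -1.52 log2 units (adjusted p = 0.000493). ARR3, ARR6 and ARR15 were called lower too. With normexp background correction ARR3 (log2 change -1.22, adjusted p = 0.46), ARR6 (log2 change -2.15, adjusted p = 0.0948) and ARR15 (log2 change -2.26, adjusted p = 0.0953) no longer passed. With array-median scaling ARR9 (log2 change -0.65, adjusted p = 0.0438) did not pass.

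Ethylene genes were mixed, with 7 higher and 4 lower of 18, 10 higher and 2 lower with array-median scaling and 4 higher and 3 lower with normexp background correction. The receptors ETR2 and ERS1 rose by 2.71 log2 units and 1.57, and EBF2, which removes the ethylene factor EIN3, rose by 2.52 log2 units. For synthesis, ACO1, which makes ethylene in its last step, lay at log2 levels of -0.80, -0.64 and -0.72 on the seedling arrays and -5.50, -4.25 and -5.21 on the T87 arrays (log2 change -4.27, SE 0.65, adjusted p = 0.000199). In 2,4-D-induced callus ACO1 stood at a log2 level of 2.33 ± 0.40, and the calli differed (log2 difference -7.32, adjusted p = 6.23e-06). Of 11 brassinosteroid genes 4 were lower and none higher, though 3 higher and 2 lower with array-median scaling and 0 higher and 2 lower with normexp background correction: the biosynthetic CPD changed by -2.32 log2 units (adjusted p = 2.53e-06) and BR6OX2 was at least 34.5-fold lower, while the receptor BRI1 (log2 change -0.71) did not pass. Of 18 abscisic acid genes 2 were higher and 4 lower, though 8 higher and 3 lower with array-median scaling and 1 higher and 1 lower with normexp background correction. At the main scaling these counts do not exceed the shares of all genes, 20.9% higher and 26.6% lower. The lower ones included ABA1, an early biosynthetic enzyme (log2 change -2.13, adjusted p = 1.52e-06), and NCED3, the stress-induced one, at least 17.3-fold lower. With normexp background correction the change of BR6OX2 (log2 change -2.39, adjusted p = 0.0662), ABI5 (log2 change 0.25, adjusted p = 0.811), CYP707A2 (log2 change -1.61, adjusted p = 0.158), OST1 (log2 change -0.90, adjusted p = 0.0039) and NCED3 (log2 change -1.99, adjusted p = 0.113) no longer passed. With array-median scaling OST1 (log2 change -0.20, adjusted p = 0.246) did not pass. OST1 lost its call without seedling replicate 1 (log2 change -0.96, adjusted p = 0.000461).

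Of 19 genes tested that supply nucleotides or answer DNA damage, 10 were higher in T87 callus and 0 lower, or 17 higher and 0 lower with array-median scaling, with a median log2 change of 1.19, beside 0.09 in 2,4-D-induced and 0.29 in 35S:WIND1 callus. Of the 19, 10 were higher than in 2,4-D-induced callus and 7 higher than in 35S:WIND1 callus. The shares of all genes called higher in these comparisons were 19.7% and 16.8%. RNR1, the large subunit of the enzyme that makes deoxynucleotides, lay at log2 levels of 1.55, 1.63 and 1.47 on the seedling arrays and 3.45, 3.43 and 3.47 on the T87 arrays (log2 change 1.91, SE 0.26, adjusted p = 8.61e-05). Its T87 arrays lay above all other arrays (log2 difference 1.97, adjusted p = 8.82e-05). The small subunit TSO2 rose by 1.28 log2 units, the repair gene BRCA1 by 1.73, the polymerase PARP2 by 2.28 and the replication clamp genes PCNA1 and PCNA2 by 1.19 and 1.38. SMR5 and SMR7, cell-cycle inhibitors of the damage response, rose by 2.82 log2 units and 1.58, and SMR5 did not differ from 35S:WIND1 callus by the test (log2 difference -0.19, adjusted p = 0.668). The damage kinases ATM (log2 change 0.23) and ATR (log2 change -0.09) and their target SOG1 (log2 change 0.19) did not pass. After normexp background correction the change of SMR7 (log2 change 0.87, adjusted p = 0.0217) no longer passed.

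Of 12 histones of the H3 and linker families, 3 were higher and none lower, 11 higher and 0 lower with array-median scaling. Since 20.9% of all genes were higher and 26.6% lower, the 3 higher are near the common share, while the lack of lower ones is below theirs. HTR13, an H3 gene, rose by 1.77 log2 units (adjusted p = 0.000149), HTR9 by 1.39 and HTR8 by 1.42, and the centromeric HTR12, with a seedling spot dropped, did not pass (log2 change 0.31). H3 genes are near-identical copies, so signal can be shared between their probes. Of 22 nucleolar and translation genes 8 were higher and 0 lower, or 17 higher and 0 lower with array-median scaling, with a median log2 change of 0.87. NUC-L2, the less active of the nucleolin genes in wild-type plants, lay at log2 levels of -2.63, -2.76 and -1.96 on the seedling arrays and 1.24, 1.97 and 1.61 on the T87 arrays (log2 change 4.06, SE 0.51, adjusted p = 5.77e-05). It was at a log2 level of -2.19 ± 0.31 in 2,4-D-induced callus and at 1.04 ± 1.22 in 35S:WIND1 callus, and T87 callus was above the former (log2 difference 3.80, adjusted p = 0.000116). The pre-rRNA factor APUM24 rose by 2.48 log2 units, the cap-binding EIF4E by 1.16, NOP58-1 by 1.56 and NUC-L1 by 1.48. Tubulins and actins showed 9 lower and 1 higher of 21, though 6 higher and 5 lower with array-median scaling and 1 higher and 6 lower with normexp background correction; TUB5 changed by -2.88 log2 units, TUB6 by -2.23 and ACT2 by -2.15.

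Of 15 chaperone genes of the endoplasmic reticulum and cytosol, 3 were higher and none lower, or 10 higher and 0 lower with array-median scaling and 2 higher and 0 lower with normexp background correction. The 3 higher are near the share of 20.9% of all genes, while none was lower, beside 26.6% of all genes. The heat-inducible HSP90.1, for which a T87 spot was dropped as an outlier, lay at log2 levels of 2.37, 2.38 and 2.3 on the seedling arrays and 5.41 and 5.25 on the T87 arrays (log2 change 2.98, SE 0.27, adjusted p = 1.21e-05), and BZIP60, a factor of the unfolded protein response, rose by 1.78 log2 units. The constitutive chaperones HSP70-1 (log2 change -0.25), with a spot dropped in each group, and HSP90.2 (log2 change -0.20) did not pass. Of 14 oxidative stress enzymes 6 were higher and 4 lower, 7 higher and 2 lower with array-median scaling and 3 higher and 4 lower with normexp background correction. The alternative oxidase AOX1A, which bypasses part of the respiratory chain, lay at log2 levels of 1.07, 0.59 and 1.32 on the seedling arrays and 4.88, 4.74 and 4.27 on the T87 arrays (log2 change 3.63, SE 0.27, adjusted p = 1.45e-06). The heat-linked ascorbate peroxidase APX2 was at least 121-fold higher (adjusted p = 1.81e-06). The leaf catalase CAT2 changed by -4.07 log2 units and the cytosolic superoxide dismutase CSD1 by -2.87, both also lower than in 2,4-D-induced and 35S:WIND1 callus, with log2 differences of -1.17 and -2.62 from the former. Under normexp background correction the change of AOX1D (log2 change 1.23, adjusted p = 0.0604) and RBOHF (log2 change 0.88, adjusted p = 0.0824) no longer passed. With that correction CAT1 (log2 change -0.20, adjusted p = 0.911) changed sign. With array-median scaling CAT3 (log2 change -0.42, adjusted p = 0.268) and CSD2 (log2 change -0.84, adjusted p = 0.0212) did not pass.

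Of 21 genes of immune receptors, salicylate defence and camalexin, 5 were higher and 9 lower, 6 higher and 7 lower with array-median scaling and 3 higher and 7 lower with normexp background correction. The flagellin receptor FLS2 rose by 1.96 log2 units (adjusted p = 0.000149) and the kinase BIK1, which acts with it, by 1.78 (adjusted p = 0.000189). PAD4, which promotes salicylate signalling, lay at log2 levels of 0.68, 0.42 and 0.80 on the seedling arrays and -4.31, -4.03 and -3.88 on the T87 arrays (log2 change -4.71, SE 0.42, adjusted p = 5.16e-06). No T87 array reached the seedling range, and 2,4-D-induced callus stood above seedlings at 2.01 ± 0.43 (log2 difference -6.09, adjusted p = 1.19e-06). The salicylate exporter EDS5 changed by -3.68 log2 units, PR2 by -4.48, and the pathogenesis-related PR5 was at least 61.8-fold lower. CYP79B2, at the entry to camalexin and indole glucosinolates, changed by -5.26 log2 units.

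WRKY factors, many of which act in defence and senescence, showed 25 higher and 15 lower of 60 tested, 35 higher and 10 lower with array-median scaling and 21 higher and 3 lower with normexp background correction. WRKY23, which acts in auxin-dependent development, lay at log2 levels of -0.72, -0.88 and -0.61 on the seedling arrays and 2.7, 3.26 and 3.14 on the T87 arrays (log2 change 3.77, SE 0.31, adjusted p = 3.1e-06). WRKY48, WRKY57, WRKY45 and WRKY3 rose by 3.79 log2 units, 3.57, 3.49 and 3.32. WRKY70, which links salicylate and jasmonate responses, lay at log2 levels of 2.3, 2.32 and 2.09 on the seedling arrays and -3.1, -1.70 and -2.49 on the T87 arrays (log2 change -4.67, SE 0.47, adjusted p = 1.18e-05). It was also below 2,4-D-induced callus (log2 difference -5.18, adjusted p = 7.57e-06), where it stood at a log2 level of 2.75 ± 0.49. Cytochromes P450 showed 82 lower and 24 higher of 169, 46 higher and 73 lower with array-median scaling, 16 higher and 35 lower with normexp background correction, and a median log2 change of -1.24. The glucosinolate enzyme CYP83A1 changed by -12.69 log2 units, with 1 of its T87 arrays well above background, and CYP86A1, a fatty acid hydroxylase of suberin, was at least 296-fold lower. CYP76C2, well above background on 2 of the 3 seedling arrays, and CYP71A23 rose by 7.73 log2 units and 5.73.

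**Figure D3:**
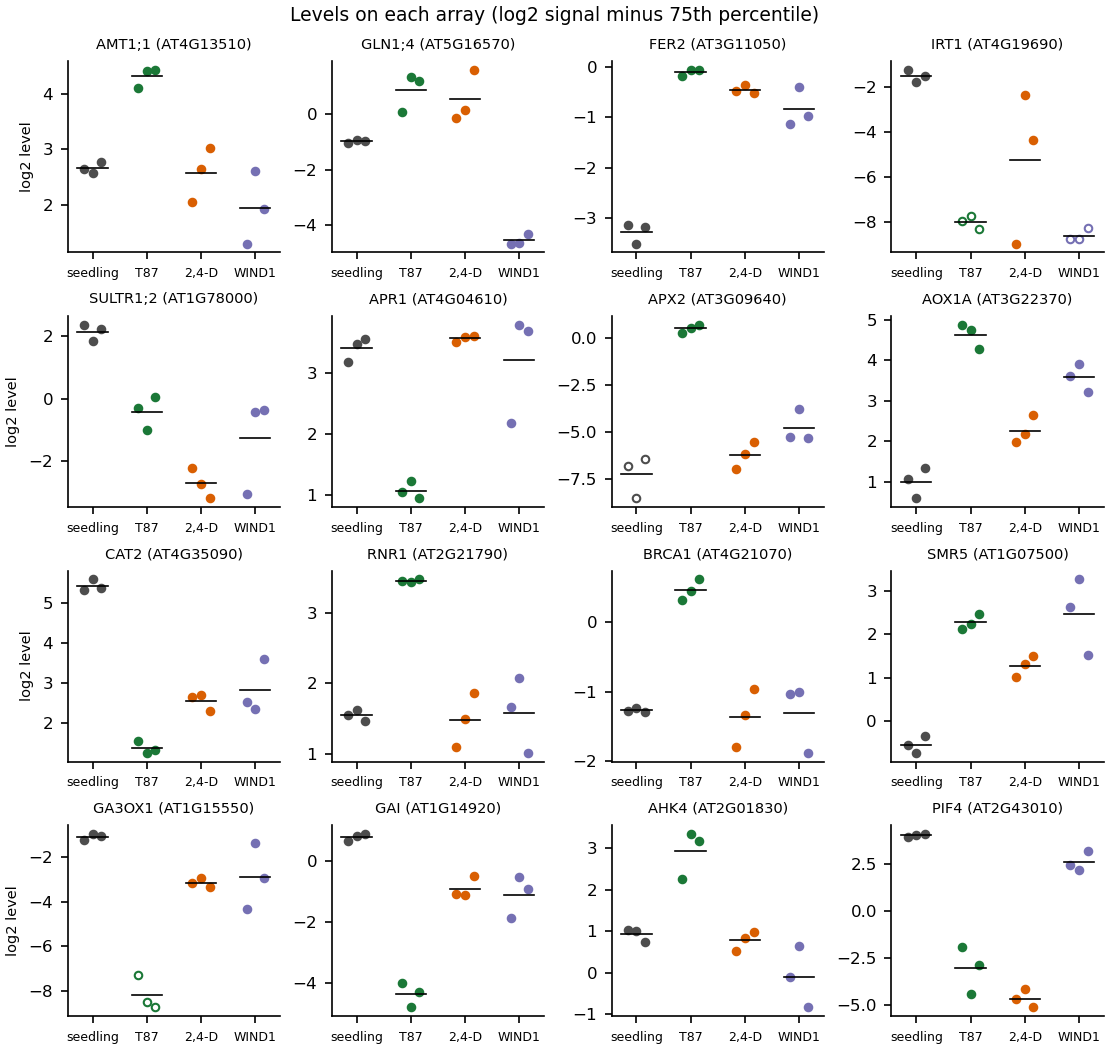
Log2 level, as signal relative to the array's 75th percentile, of selected genes (y axis panels) on each of the 12 arrays, by group. Horizontal lines are group means and open circles mark genes that no array of the group measured well above background, and all T87 arrays of AMT1;1 (4.11 to 4.44) and RNR1 (3.43 to 3.47) lie above all other arrays.

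The genes that set T87 callus apart from all 3 other groups included several that are silent in most tissues of the plant. T87 callus was called higher than all 3 for 1683 genes (7.88%) and lower than all 3 for 1860 (8.71%). FWA, a homeodomain gene that DNA methylation keeps silent in vegetative tissue, lay at log2 levels of -8.54, -8.49 and -8.52 on the seedling arrays and 3.54, 3.55 and 3.84 on the T87 arrays, and was at least 1048-fold higher (adjusted p = 2.35e-08). No seedling array measured it above background, and it stood at a log2 level of -8.57 ± 0.65 in 2,4-D-induced and a log2 level of -7.81 ± 1.0 in 35S:WIND1 callus. SDC, an F-box gene also kept silent by DNA methylation, for which a seedling spot was dropped as an outlier, lay at -5.88 and -6.90 on the seedling arrays and 3.82, 3.82 and 3.46 on the T87 arrays, with 2 of the 3 seedling arrays well above background (log2 change 10.09, SE 0.38, adjusted p = 6.08e-08), and stood at a log2 level of -8.22 ± 0.62 and a log2 level of -8.78 ± 0.14 in the other calli. RGE1, a bHLH gene of the endosperm, was at least 225-fold higher, PKR2, of the PICKLE family of chromatin remodellers, at least 119-fold, GATA29 at least 114-fold, MYB22 at least 148-fold and the kinase MKK7 at least 228-fold. DNA methylation itself was not measured here.

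Among RNA silencing genes 6 were higher and 2 lower of 24, 16 higher and 1 lower with array-median scaling and 4 higher and 2 lower with normexp background correction. With 20.9% of all genes higher and 26.6% lower, the 6 higher are near the share of genes at large, while the 2 lower are below theirs. AGO9, an Argonaute known from ovules, lay at log2 levels of -5.74, -5.10 and -6.00 on the seedling arrays and -0.87, 0.09 and -0.69 on the T87 arrays, with 2 of the 3 seedling arrays well above background (log2 change 5.12, SE 0.33, adjusted p = 6.3e-07). It stood at a log2 level of -0.81 ± 0.28 in 35S:WIND1 callus (log2 difference 0.32, adjusted p = 0.425) and at -7.46 ± 0.46 in 2,4-D-induced callus, where no array measured it, at least 62.7-fold below T87 callus (adjusted p = 1.23e-07). RDR2, the polymerase that feeds small-RNA-directed DNA methylation, rose by 2.02 log2 units (adjusted p = 0.000747), DCL3 of the same pathway by 1.71 (adjusted p = 9.7e-06) and SGS3 by 1.90. The microRNA processor DCL1 changed by -1.79 log2 units and AGO7, which makes trans-acting small RNAs, by -4.47, both also below the other calli. AGO1 (log2 change -0.45), AGO4 (log2 change -0.07) and the polymerase subunit NRPE1 (log2 change 0.55) did not pass. With array-median scaling DCL1 (log2 change -0.93, adjusted p = 0.000131) did not pass.

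Of 21 gamete and endosperm genes 9 passed the filter on dim probes, and 3 of these were higher and 1 lower, 5 higher and 0 lower with array-median scaling and 1 higher and 0 lower with normexp background correction. A gene passed this filter if any 1 group had it well above background on all 3 arrays, which may be the group where it is high. The counts among the 9 therefore do not measure what share of such genes rose. The poly(A)-binding protein gene PAB5, known from reproductive tissue, lay at log2 levels of -5.93, -5.15 and -6.01 on the seedling arrays and 1.99, 2.47 and 2.38 on the T87 arrays (log2 change 7.98, SE 0.33, adjusted p = 4.04e-08), and GEX1, of the gamete nucleus, was at least 21.3-fold higher (adjusted p = 1.78e-05). The egg-cell gene EC1.1 (log2 change 0.01) and the sperm-linked GEX2, well above background on 2 seedling arrays (log2 change 0.17) did not pass. Under normexp background correction the change of GEX1 (log2 change 1.31, adjusted p = 0.217) no longer passed.

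T87 and the other calli were tested against the same seedlings, so shared changes among them are not independent, and differences rest on the direct comparisons. T87 callus was called higher than 2,4-D-induced callus for 4206 genes (19.7%) and lower for 4094 (19.2%), 38.9% in all, and against 35S:WIND1 callus for 3590 (16.8%) and 4280 (20%), 36.8% in all. Against seedlings 42.9% of genes were called in 2,4-D-induced callus and 32.1% in 35S:WIND1 callus. Opposite calls against seedlings together with a called direct difference were found for 241 genes (1.13%) higher in T87 and lower in 2,4-D-induced callus, and for 473 (2.21%) the reverse. For 35S:WIND1 callus the counts were 176 (0.824%) and 371 (1.74%). Genes lower in T87 callus than in all 3 other groups included those of cuticle and lipids. KCS10, which is the epidermal marker FDH, lay at log2 levels of 3.09, 3.14 and 3.13 on the seedling arrays and -5.75, -8.49 and -7.85 on the T87 arrays, with 1 of the 3 T87 arrays well above background (log2 change -10.49, SE 0.57, adjusted p = 1.99e-07). BDG1, a cuticle gene, was at least 116-fold lower (adjusted p = 7.79e-09), and the desaturase ADS1, well above background on 2 of the 3 T87 arrays, changed by -9.92 log2 units. The lipid transfer protein LP1 changed by -10.86 log2 units and BAM3 (AT4G20270), a receptor kinase of the phloem, by -9.60, each well above background on 1 T87 array. GONST1, a Golgi carrier of GDP-mannose, was at least 83.5-fold lower.

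Changes in T87 callus were not spread evenly along the chromosomes. By chromosome, the share of genes called higher than in seedlings ran from 17.4% on chromosome 3 to 25.3% on chromosome 5, with median changes of -0.05, -0.20, -0.07, 0.11 and 0.21 on chromosomes 1 to 5. Tested genes were then taken in the order of their locus codes in bins of 20, a size chosen after the bins of 100 had been seen, which gave 1069 bins. In T87 callus 50 bins had a median change of at least 2-fold up and 54 one of at least 2-fold down, beside 4 and 30 in 2,4-D-induced and 2 and 3 in 35S:WIND1 callus. The SD of the bin medians was 0.62 in T87, 0.46 in 2,4-D-induced and 0.30 in 35S:WIND1 callus. A run was defined as at least 2 adjoining bins past 2-fold the same way: T87 callus had 11 runs up and 3 down, 2,4-D-induced callus 0 up and 1 down, and 35S:WIND1 callus 0. Since the runs were chosen by these values, they are a description with no test. Bins and runs were counted at the main scaling only and were not recounted under other settings. With array-median scaling the median change of all genes was 0.86, which moves bins toward the limit up and away from the limit down. The numbers of bins and runs up and down therefore hold for the main scaling alone.

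**Figure D4:**
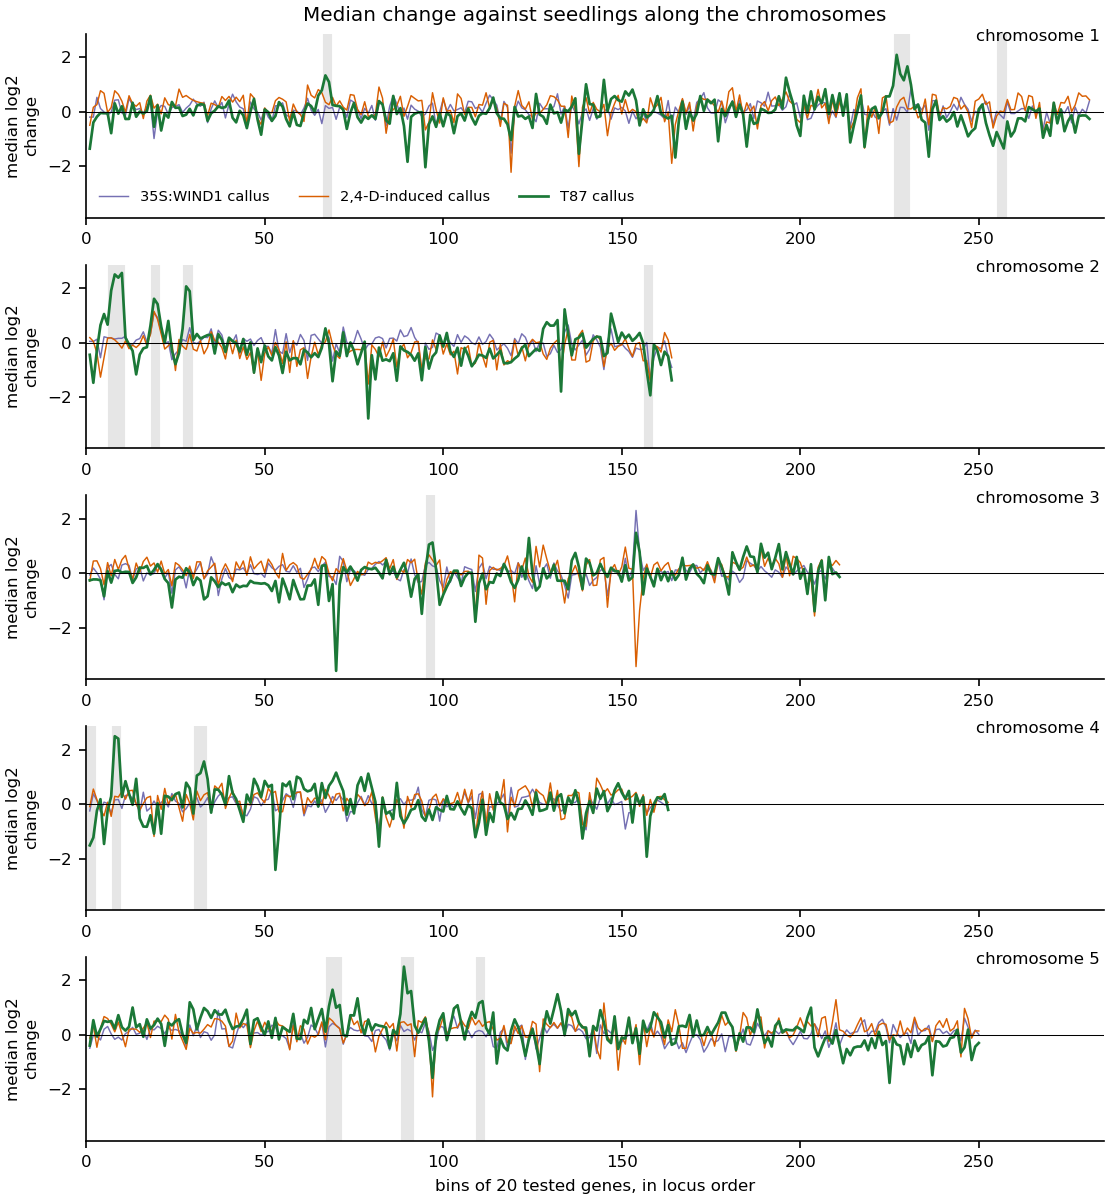
Median log2 change, T87 callus minus seedlings, of bins of consecutive tested genes (y axis) in the order of their locus codes along each of the 5 chromosomes (x axis, gene order, not distance), with the other calli beside it. Bins of T87 callus stray farther from 0 than those of the other calli, with an SD of 0.62 beside 0.46 and 0.30.

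The run with the highest median spans the 40 tested genes from AT4G01460 to AT4G01897 on chromosome 4, with a median log2 change of 2.4. Its medians against the seedlings were 2.46, 2.29 and 2.29 on the T87 arrays, 0.28 in 2,4-D-induced and 0.17 in 35S:WIND1 callus. The bins before and after it stood at 0.29 and 0.27. Of its genes 28 (70%) were called higher and 6 lower. ARV2, of sterol transport, lay at log2 levels of -1.47, -1.48 and -1.54 on the seedling arrays and 1.91, 1.83 and 1.80 on the T87 arrays (log2 change 3.35, SE 0.09, adjusted p = 5.45e-09). Its neighbours NTM1, a membrane-bound NAC factor, NAC069 and MEE49 rose by 3.35 log2 units, 3.33 and 3.31.

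Of 3 runs up that span 80 tested genes each, the one with the highest median lies from AT2G02570 to AT2G03680 on chromosome 2, with a median log2 change of 2.32, beside 0.00 in 2,4-D-induced and 0.15 in 35S:WIND1 callus. Of these genes 54 (67.5%) were called higher and 17 lower. RNS1, a secreted ribonuclease, lay at log2 levels of -3.77, -3.05 and -1.84 on the seedling arrays and 1.98, 2.29 and 1.39 on the T87 arrays (log2 change 4.77, SE 0.48, adjusted p = 1.16e-05), and the purple acid phosphatase PAP9 rose by 4.51 log2 units, the Golgi nucleotide-sugar carrier UTR1 by 4.19 and QUL2 by 3.40. RNS1 was also raised in 35S:WIND1 callus, by 5.26 from seedlings, and did not differ from it by the test (log2 difference -0.49, adjusted p = 0.401), while PAP9 lay above both other calli, by a difference of 4.75 from 2,4-D-induced (adjusted p = 1.02e-08) and 4.42 from 35S:WIND1 callus (adjusted p = 2.13e-08). A further run on chromosome 2, from AT2G16250 to AT2G16800, had a median log2 change of 2.06 and held TOC132, the replication helicase gene MCM4 (log2 change 4.14), the histone-binding MSI2 (log2 change 4.14) and ASE1, of purine synthesis (log2 change 4.65). On chromosome 5 the run from AT5G22150 to AT5G22840 had a median log2 change of 2.03, with CAF1b, of mRNA deadenylation (log2 change 3.66), and NIT4, a nitrilase (log2 change 3.16), among its genes. NIT4 did not differ from 2,4-D-induced callus by the test (log2 difference 0.50, adjusted p = 0.332), and CAF1b was above it (log2 difference 2.53, adjusted p = 1.24e-06). Directly against 2,4-D-induced callus the medians of these 4 runs were 2.25, 2.44, 2.15 and 1.62 in the order given.

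The other 7 runs up had medians between 1.06 and 1.59. They lie from AT1G68820 to AT1G69720, AT1G15700 to AT1G16120, AT2G07680 to AT2G07779, AT3G22330 to AT3G22820, AT4G10090 to AT4G10910, AT5G16750 to AT5G17690 and AT5G27490 to AT5G27960. The run from AT2G07680 to AT2G07779 holds nuclear copies of mitochondrial genes, whose probes cannot be told from those of the mitochondrial genes, and it was also raised in 2,4-D-induced (median 0.97) and 35S:WIND1 callus (median 0.99). All 11 runs up together held 600 tested genes, of which 376 (62.7%) were called higher and 94 (15.7%) lower. Among the other 20756 genes on the chromosomes 4076 (19.6%) were higher and 5576 (26.9%) lower. Because the runs were picked by these same changes, a larger share called higher in them was fixed in advance and tests nothing. Several genes given above lie in these runs: WRKY57 and WRKY3, TOC132, AOX1A, RGL3 and WPP3 with rises, and AGO7 with a log2 change of -4.47. The runs down were AT1G75240 to AT1G75730 (median -1.35), AT4G00010 to AT4G00420 (median -1.37) and AT2G46510 to AT2G46915 (median -1.60), the last also low in 2,4-D-induced callus (median -1.22).

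**Figure D5:**
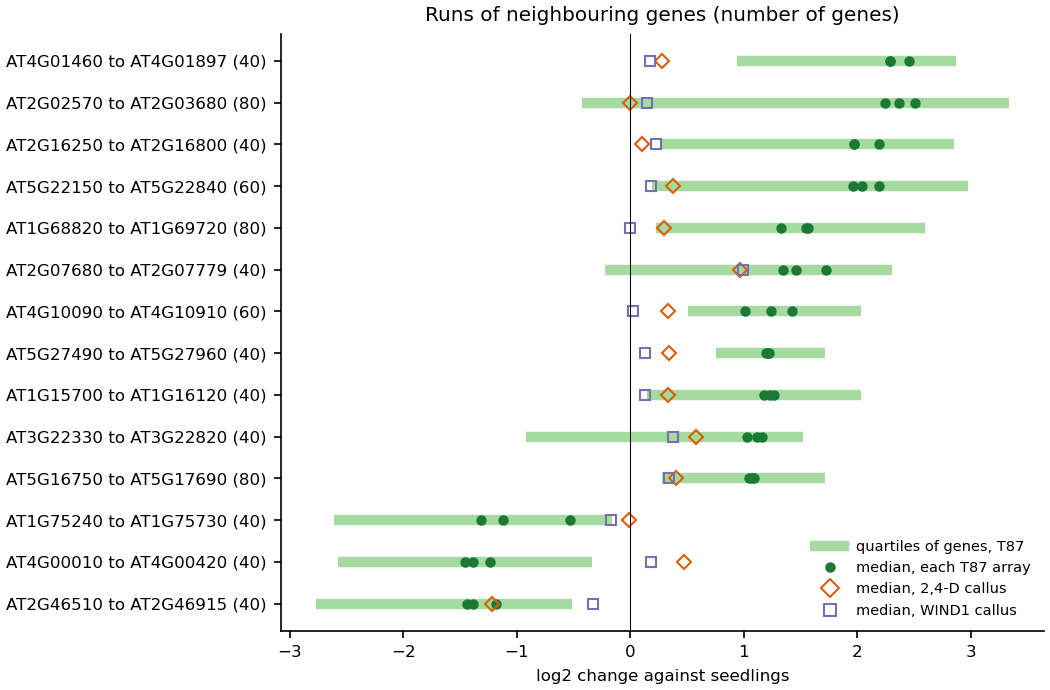
Log2 change, T87 callus minus seedlings, in the runs of neighbouring genes (y axis), with the quartiles over genes as lines, each T87 array's median as points, and the medians of the other calli as further marks. The medians of the T87 arrays lie above 1 in all 11 runs up, and in the 3 runs down they range most widely in the run from AT1G75240 to AT1G75730, at -1.12, -1.32 and -0.53.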

How the data were processed

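Total RNA of 4 groups of 3 arrays was measured on one-colour Agilent arrays. The authors deposited 1 scanner output per array, with 39102 spots and, per the file headers, intensity values on a linear scale, and the processed signal had its background subtracted by the authors' scanner software, Agilent Feature Extraction 9.1.3.1 per the submitters' processing notes, with no scaling between arrays. The authors' deposited series table was found to be the natural log of that signal minus a constant per group, so differences between groups in it carry those constants, and it served only as an alternative. For the genome build, the sources used here give no name.

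Each array's 1417 control spots were left out, and 25 to 218 outlier spots per array were dropped. The log2 signal minus the array's 75th percentile over the remaining spots was averaged over spots of a probe. A probe was kept if some group had it well above background on each of its 3 arrays. A gene is a locus code of the array (SystematicName), stood for by its brightest probe. Of 25665 loci, 25449 matched the RefSeq table of TAIR10.1, which gave symbols, and 9275 of 21361 genes tested had one. No spot was saturated. The number of arrays limits the precision.

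All 12 arrays entered 1 limma 3.58.1 fit (R 4.3.3) with group as the only term, with eBayes and Benjamini-Hochberg adjustment over all genes. The fit was tried on simulated data that gave every group the spread of the seedling arrays (median SD 0.11, beside 0.18 in T87 callus). That trial cannot show how the fit does when groups differ in spread. A fold given as "at least" sets the brighter mean over, per array of the dimmer group, the higher of the gene's own signal and the lowest signal of a probe well above background. Alternatives were normexp (offset 50, on median spot and background signals), quantile and array-median scaling, deposited values, filters, replicate block, fold threshold, probe choice and leaving out arrays. Genes are named if among the 15 largest rises or falls, the 6 highest bounds each way, the 4 largest changes of a list each way, the 8 that differ most from all other groups each way, or cell type markers. Members, lists and rules were chosen with earlier results of these data known. Genes outside these limits, such as list members that did not pass and genes of the chromosome runs, were picked after their values were seen. No promoter or protein sequences were used here. One gene family of the design is not reported here.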

Additional observations from a re-analysis of the deposited data

Results flagged for a closer look

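Some genes named in the lists moved in opposite directions from the seedlings in T87 callus and in another callus, and the direct difference between the calli passed limma's test, adjusted over all genes. Values below are log2 differences, T87 callus minus the other callus. Both changes use the same seedlings.

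Against 2,4-D-induced callus, the endoplasmic reticulum chaperone BIP3 was higher by 4.73 (adjusted p = 0.000441) and CESA9 by 4.71 (adjusted p = 1.68e-05). The other genes were lower in T87 callus. BAS1, which inactivates brassinosteroids, differed by -2.91 (adjusted p = 6.47e-05), and SHR, a regulator of root patterning, by -3.13 (adjusted p = 0.000883). In carbon supply, the sucrose synthase SUS3 differed by -5.1 (adjusted p = 5.86e-06) and CWINV1 by -5.22 (adjusted p = 3.82e-06). In salicylate defence, EDS5 differed by -5.97 (adjusted p = 1.53e-06) and PAD4 by -6.09 (adjusted p = 1.19e-06). ACO1 differed by -7.32 (adjusted p = 6.23e-06). WOX5, which maintains the root stem-cell niche, differed by -7.53 (adjusted p = 4.85e-06), with a change from seedlings of -1.89 in T87 callus and of 5.64 in 2,4-D-induced callus.

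Against 35S:WIND1 callus, GLN1;4 was higher by 5.44 (adjusted p = 4.31e-06), AHK4 by 3.03 (adjusted p = 7.04e-05) and HTR13 by 2.99 (adjusted p = 6.48e-06). The kinase OST1, which acts in abscisic acid signalling of guard cells, differed by -2.16 (adjusted p = 1.05e-06) and the catalase CAT3 by -2.45 (adjusted p = 0.000151). SUS3 differed by -4.75 (adjusted p = 1.2e-05), EDS5 by -4.8 (adjusted p = 8.51e-06) and WOX5 by -5.04 (adjusted p = 9.03e-05). XCP1, a protease of xylem vessels, differed by -6.41 (adjusted p = 1.92e-05), with a change of -4.00 in T87 callus and of 2.41 in 35S:WIND1 callus against seedlings.

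Several of the T87 calls against seedlings behind these opposite directions did not hold in other settings, so for these genes the T87 direction is uncertain. That of WOX5 rests on seedling array 3 (log2 level -2.07, beside -4.52 and -4.96): without it the change was -1.0 (adjusted p = 0.0318 with limma), and the call was also lost with normexp (-0.98), quantile normalization (-1.07), array-median scaling (-1.02), only the 6 arrays (adjusted p = 0.0589) and without T87 replicate 1 (adjusted p = 0.0658). SUS3 lost its call with normexp (-0.79), quantile normalization (-0.91), array-median scaling (-0.30), the replicate block (adjusted p = 0.0657), only the 6 arrays (adjusted p = 0.0516), and without seedling replicate 1 (-1.1) or 3 (-1.06) or T87 replicate 2 (-1.15) or 3 (-0.73). BIP3 lost it with normexp (1.33) and without seedling replicate 1 (2.22) or 2 (2.00) or T87 replicate 2 (1.82) or 3 (1.8). Array-median scaling ended the calls of SHR (-0.79), BAS1 (-0.73), OST1 (-0.20) and CAT3 (-0.42), and normexp those of BAS1 (-1.03), OST1 (-0.90) and GLN1;4 (1.46). OST1 also lost it without seedling replicate 1 (-0.96).

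The array also carries 8812 probes named by genomic position and not by a gene, which entered no comparison above. Of these, 218 were well above background on all 3 T87 arrays and on no seedling array, and 238 the reverse.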

How the results depend on the processing

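Counts below are genes called higher and lower in T87 callus. With normexp background correction, run on median signals, they were 2425 and 2733 against seedlings, 2302 and 1943 against 2,4-D-induced callus and 1764 and 1931 against 35S:WIND1 callus. Of the 4454 and 5671 genes called against seedlings, 2360 and 2730 kept their call. Array-median scaling gave 9640 higher against seedlings and 5969 against 35S:WIND1 callus, and the deposited values gave 2131 and 6508 against the latter. With probes well above background on all 6 arrays compared, which tests fewer genes, 3298 were lower than in seedlings and 2586 lower than in 35S:WIND1 callus. At 4-fold there were 2001 higher than in seedlings, 2339 and 2319 against 2,4-D-induced callus and 1600 and 2746 against 35S:WIND1 callus. Leaving out 1 array at a time gave 4345 to 4495 higher and 5482 to 5592 lower against seedlings, 4051 to 4187 and 3983 to 4076 against 2,4-D-induced callus, and 3446 to 3728 and 4028 to 4404 against 35S:WIND1 callus. Slides carry the replicate numbers, so the replicate block is also the slide block, and it gave 4451 and 5669, 4181 and 4078, and 3585 and 4250. Same-numbered T87 and seedling arrays did not deviate together (correlations 0.0161, -0.0486 and 0.0091). These values gave no sign of a pairing by number, though they cannot show that there was none.

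The median change of all genes was -0.11 with normexp, 0.15 with quantile normalization, 0.86 with array-median scaling, -0.03 with deposited values and -0.12 without a filter on dim probes. Relative to it, list medians kept their sign in all settings but these: with normexp the gamete and endosperm list was at -0.21 and the oxidative stress list at -0.0057, and the abscisic acid median ranged from -0.18 to 0.12. Of 365 genes called and followed, normexp ended the call of 83 and turned 6, to -0.20 for CAT1 (AT1G20630), -0.048 for WUS (AT2G17950), -0.32 for CLV3 (AT2G27250), -0.45 for LBD18 (AT2G45420), -0.15 for CYP96A13 (AT5G02900) and -0.32 for NF-YB6 (AT5G47670). The call ended for 46 with array-median scaling, 9 with quantile normalization, 2 with deposited values, 2 with the block, and 9 to 13 when an array was left out. The cause of these changes was not tested. Over the settings and relative to the median of all genes, medians given in the text moved by over 1.5 times for the iron (-2.82 to -1.26), gibberellin (-2.31 to -1.0), phenylpropanoid (-1.84 to -1.05), sulfate (-1.79 to -1.06), cytochrome P450 (-1.39 to -0.69), cytokinin (-1.16 to -0.53) and nitrogen lists (-0.61 to -0.29). Of the runs, that from AT2G02570 ranged from 1.19 to 2.48, and these fell below 2-fold in some setting: AT2G07680 (0.64 to 1.66), AT3G22330 (0.81 to 1.21), AT4G10090 (0.89 to 1.36), AT5G27490 (0.93 to 1.3), and among runs down AT1G75240 (-1.36 to -0.64), AT4G00010 (-1.43 to -0.91) and AT2G46510 (-1.67 to -0.97). The ranges of the runs are relative to the median of all genes, so they do not show how the counts of bins and runs change with scaling. Where a gene is not well above background, only a bound can be given. The description of promoter motifs was not run.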

Other observations

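The RNA of the organelles' own genes was measured for few genes. Of 4 mitochondria-encoded genes tested, 2 were called higher in T87 callus than in seedlings and none lower, 4 with array-median scaling and 0 with normexp background correction. The higher ones were ATMG00300 (log2 change 2.18, adjusted p = 0.000932 with limma) and ATMG00285 (log2 change 1.49, adjusted p = 4.42e-05). The raised run from AT2G07680 to AT2G07779 (median 1.52) holds nuclear copies of mitochondrial genes. Probes of the copies and of the mitochondrial genes cannot be told apart, so which of them gave this signal is not known. The 1 plastid-encoded gene tested, ATCG01000, was lower (log2 change -1.54, adjusted p = 4.55e-05), but not with array-median scaling. The bin of 20 neighbouring genes that starts at AT3G50100 had a median log2 change of 1.49 in T87 callus, -3.42 in 2,4-D-induced callus and 2.31 in 35S:WIND1 callus against the same seedlings, with no test.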
